A study of Rattus norvegicus with 6 samples.

Results

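A set of 10 antigen presentation genes was followed in the renal cortex of 6 rats, 3 dosed with 4-hydroxy-m-phenylenediammonium dichloride and 3 given corn oil. They were the class II genes Cd74, Ciita, RT1-Da, RT1-Db1, RT1-Ba and RT1-Bb, and the class I genes B2m, Tap1, Tap2 and Psmb8. The genes were chosen by name, and every non-control probe whose RefSeq accession belonged to one of them was taken. These 10 genes are among 15645 genes named on the array, and their 24 probes are among 61537 non-control probes. Of the 10 genes, 9 had a probe well above background on all arrays of at least 1 group and were tested, and 22 of the 24 probes passed the same filter. The tenth gene, RT1-Ba, had 1 probe, which stayed below that limit on each of the 6 arrays.

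The animals were male Sprague-Dawley rats of the Crl:CD(SD) stock, which is outbred, bought at 5 weeks of age. Treated rats received the compound, the dihydrochloride salt of a diaminophenol, at 100 mg/kg/day for 4 weeks, in a vehicle not given in the sources used here. Control rats received corn oil over the same 4 weeks. No genetic change is labelled in either group, and both kept the same housing and basal diet. The design text calls the 3 animals of a group biological replicates, and total RNA of each animal's cortex, a mixture of all its cells, was read on 1 one-colour Agilent array. A level here is the log2 of a probe's signal minus the log2 of the 75th percentile of its array, so 0 is the signal at that percentile. The number of arrays limits the precision of every value, and the RT1 haplotypes of the animals are not given in the sources used here.

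The arrays were of like brightness, with a 75th percentile of 930 to 1001 signal units on treated arrays and 837 to 976 on control arrays. Between 68.9% and 69.6% of probes were well above background on treated arrays, and between 63.1% and 67.7% on control arrays. Each of the 2 slides held 1 group, and a difference between slides cannot be told apart from one between treatments. Cortical transporters were bright on all arrays. Slc22a6, an organic anion transporter of the proximal tubule, lay at 8.06 to 8.26 in treated and 8.18 to 8.26 in control cortex. Slc34a1, the proximal phosphate transporter, lay at 8.23 to 8.31 in treated and 8.22 to 8.43 in control cortex. The defining markers of the labelled tissue were thus present on all arrays.

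Class II molecules are pairs of an alpha and a beta chain that present peptides from engulfed proteins to CD4 T cells, mostly on dendritic cells, macrophages and B cells. In the rat the RT1-D genes (RT1-Da, RT1-Db1) and the RT1-B genes (RT1-Ba, RT1-Bb) encode them, Cd74 encodes the invariant chain that escorts new pairs to endosomes, and Ciita encodes the transactivator that switches the set on. Class I molecules sit on nearly all nucleated cells and present peptides made inside the cell to CD8 T cells. B2m is their light chain, Tap1 and Tap2 form the pump that carries peptides into the endoplasmic reticulum, and Psmb8 is a catalytic subunit of the immunoproteasome that cuts them. The RT1 genes lie together on chromosome 20, where the RefSeq order is RT1-Da, RT1-Db2, RT1-Db1, RT1-Ba, RT1-Bb, RT1-DOb, Tap2, Psmb8 and Tap1. Tap2, Psmb8 and Tap1 thus share a neighbourhood with the class II chain genes.

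Class II genes are known for a shared promoter module, in which an X box bound by the RFX complex stands before a Y box bound by NF-Y, and Ciita docks on the factors bound there. Promoters are shown here because the class II chain genes moved together from array to array. They come from RefSeq (build GRCr8) and hold bases -120 to -1 before the annotated start, on the strand of the gene. Capitals mark matches to an X box core, AGNNACNNNTG, and to the Y box letters ATTGG, or CCAAT where the box lies on the other strand.
RT1-Da (chr20:4515295-4515414, + strand): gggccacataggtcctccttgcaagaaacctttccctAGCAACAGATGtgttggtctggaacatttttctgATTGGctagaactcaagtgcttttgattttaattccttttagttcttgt
RT1-Db1 (chr20:4560163-4560282, - strand): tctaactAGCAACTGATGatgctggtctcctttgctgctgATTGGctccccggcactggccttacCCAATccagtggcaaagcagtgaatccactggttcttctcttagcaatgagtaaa
RT1-Bb (chr20:4604119-4604238, - strand): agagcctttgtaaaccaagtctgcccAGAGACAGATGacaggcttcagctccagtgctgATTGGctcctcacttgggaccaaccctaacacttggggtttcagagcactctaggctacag
RT1-Ba (chr20:4576937-4577056, + strand): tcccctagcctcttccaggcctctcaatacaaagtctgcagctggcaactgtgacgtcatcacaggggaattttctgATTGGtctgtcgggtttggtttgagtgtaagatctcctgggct
B2m (chr3:129549210-129549329, + strand): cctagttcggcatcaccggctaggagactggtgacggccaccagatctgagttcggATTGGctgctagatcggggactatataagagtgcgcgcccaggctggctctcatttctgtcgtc

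In RT1-Da the X box core began at position -83 and the Y box at -49, with 34 bases between the 2 starts. In RT1-Db1 they began at -113 and -80, and in RT1-Bb at -94 and -61, with 33 bases between the starts in both. RT1-Ba, B2m and Psmb8 held ATTGG and no match to the core, and Tap1 and Tap2 held neither. Cd74 had both in another layout, shown here from -230 to -171.
Cd74 (chr18:56526976-56527035, + strand): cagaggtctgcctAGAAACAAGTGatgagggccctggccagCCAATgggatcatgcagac
In Cd74 the core stood ahead of CCAAT, the Y box letters of the opposite strand. The letters were searched on both strands of 300 bases around the start, 250 of them before it, in 27457 RefSeq promoters. The core was found in 14.7% of them, ATTGG in 37.7%, and the core followed on the same strand by ATTGG with 30 to 36 bases between the starts in 37 promoters, 0.135%. These 37 included RT1-Da, RT1-Db1 and RT1-Bb, and among relatives RT1-Db2 and RT1-DOb. The motif letters and spacing were set after these promoters had been seen, a match is a description of letters only, and no match says only that these letters are not in this window. Ciita is not in the promoter table used here.

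No gene of the set passed the test. The comparison used limma across all 12130 genes tested, with Benjamini-Hochberg adjustment over all of them and a threshold of 0.05. It called 0 of the 9 tested genes. Of these 9, 0 had a limma unadjusted p under 0.05, against 3033 of all 12130 genes. Over all genes the adjusted test called 531, or 4.38%, with 370 higher and 161 lower in treated cortex. Leaving out any 1 array left at most 48 higher and 6 lower. The groups did not overlap for 1 of the 9 genes, against 32.8% of all genes. In treated cortex the 5 tested class II genes all had lower means, and of the 4 class I genes 2 had higher and 2 had lower means. Replicate values and their means are plotted for each gene.

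**Figure D1:**
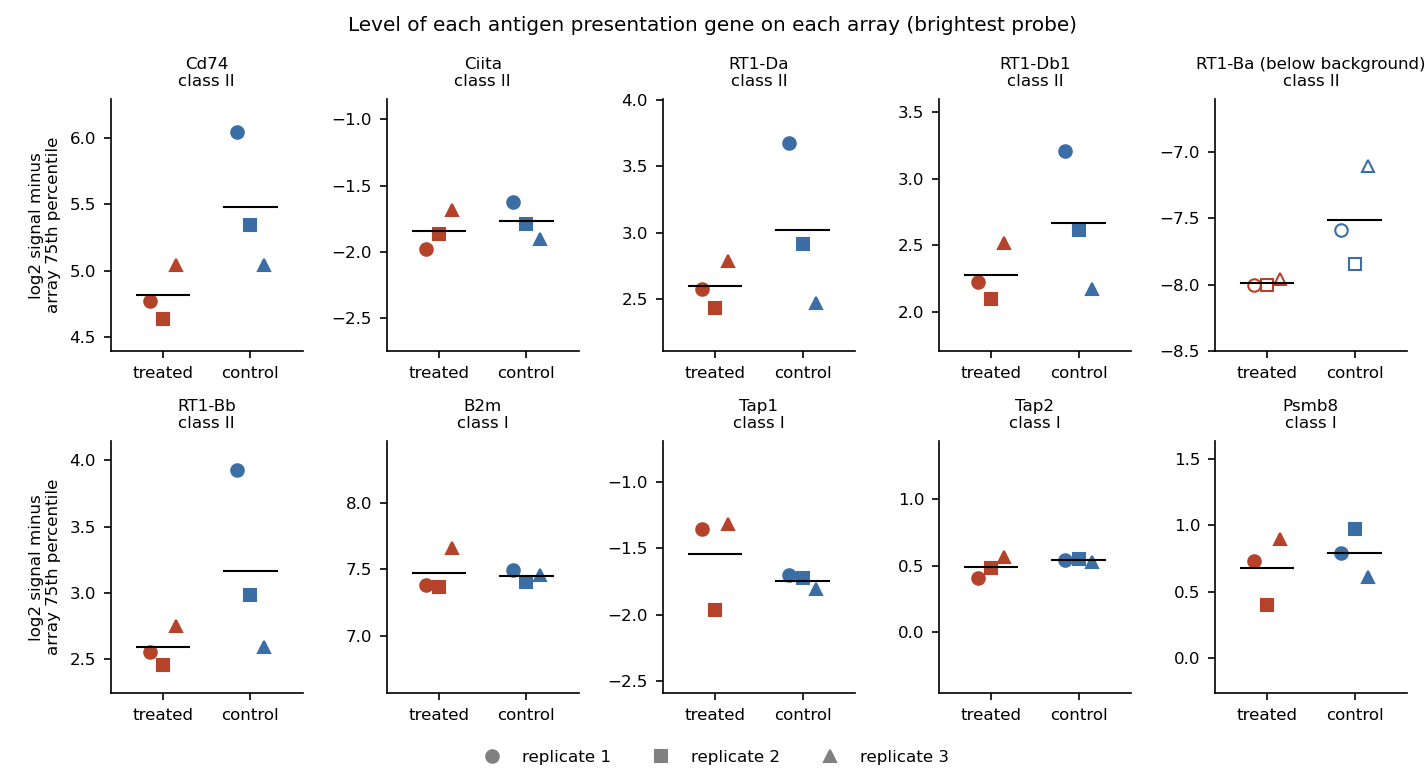
Level of each gene at its brightest probe on each array, as log2 signal minus the 75th percentile of the array, with treated left and control right in each panel. Symbols mark the replicate number, lines the group mean, and open symbols probes not well above background. Control replicate 1 is the highest array for Cd74, RT1-Da, RT1-Db1 and RT1-Bb. It is also the highest for Ciita, at -1.62 against -1.68 on treated replicate 3. All panels span the same range of log2 units.

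Ciita, the transactivator, had levels of -1.97, -1.87 and -1.68 in treated cortex, against -1.62, -1.79 and -1.90 in control cortex. The groups overlapped, and the means were -1.84 ± 0.15 in treated and -1.77 ± 0.14 in control cortex (SD, n = 3 each). The log2 difference, treated minus control, was -0.07 (SE 0.11, 95% confidence interval -0.34 to 0.20, limma adjusted p = 0.722). A second Ciita probe gave a difference of 0.12 (limma adjusted p over probes = 0.551), so the 2 probes pointed in opposite directions within their errors.

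Cd74, the invariant chain, had levels of 4.77, 4.64 and 5.04 in treated cortex, against 6.05, 5.34 and 5.04 in control cortex. It was the only one of the 9 genes whose groups did not overlap at its brightest probe, and the gap was minimal, with 5.043 on the highest treated array and 5.044 on the lowest control array. The mean was 4.82 ± 0.21 in treated and 5.48 ± 0.51 in control cortex (SD, n = 3 each), 1.58-fold lower in treated cortex. The log2 difference was -0.66 (SE 0.27, 95% confidence interval -1.33 to 0.0087, limma unadjusted p = 0.0522, adjusted p = 0.205). Cd74 rests on 1 probe.

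RT1-Da encodes the alpha chain of the RT1-D molecule. Its levels were 2.57, 2.44 and 2.78 in treated cortex, against 3.68, 2.91 and 2.47 in control cortex. Control replicate 1 stood above the other 5 arrays, and control replicate 3 lay among the treated arrays. Treated minus control, the means differed by -0.42 log2 units (SE 0.31, 95% confidence interval -1.19 to 0.34, limma adjusted p = 0.441), and its second probe gave -0.48.

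RT1-Db1 encodes the matching beta chain. Its levels were 2.22, 2.09 and 2.52 in treated cortex, against 3.21, 2.61 and 2.17 in control cortex. The order of the arrays was close to that of RT1-Da, with control replicates 1 and 2 above all treated arrays and control replicate 3 second lowest. The fit gave a log2 difference of -0.39 (SE 0.27, 95% confidence interval -1.06 to 0.29, limma adjusted p = 0.427), and the 5 probes of the gene ran from -0.48 to -0.30. RT1-Db1 and its neighbour RT1-Db2 are close relatives, and how far a probe of one also reads the other was not tested.

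RT1-Bb, the beta chain of the RT1-B molecule, had levels of 2.56, 2.46 and 2.75 in treated cortex, against 3.93, 2.98 and 2.60 in control cortex. Control replicate 1 was again the highest array, and control replicate 3 lay between treated replicates 1 and 3. The log2 difference was -0.58 (SE 0.34, 95% confidence interval -1.42 to 0.26, limma adjusted p = 0.348), and a second probe gave -0.59. The third probe of RT1-Bb stayed below the background limit on all arrays, at -7.85, -7.84 and -7.78 in treated and -7.62, -7.87 and -7.15 in control cortex. The 3 probes of this gene therefore disagreed on whether it was measured at all.

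RT1-Ba, the alpha chain that pairs with RT1-Bb, read -8.00, -8.00 and -7.96 in treated and -7.59, -7.85 and -7.10 in control cortex. All 6 values were below the background limit, so no difference is given for it. In control cortex this dim probe and the dim RT1-Bb probe were both highest on control replicate 3, not on control replicate 1.

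None of the 4 class I genes differed between the groups by more than 0.20 log2 units. B2m, the light chain, had levels of 7.38, 7.37 and 7.66 in treated cortex, against 7.49, 7.41 and 7.46 in control cortex. Treated replicate 3 was the highest array and the other treated arrays lay below all controls. The means had a log2 difference of 0.02 (SE 0.095, 95% confidence interval -0.22 to 0.25, limma adjusted p = 0.924), and the 5 probes ran from -0.09 to 0.20. One of these 5 probes, at 0.20, had all treated arrays above all controls (limma adjusted p over probes = 0.283). The sign of the B2m difference turned with median scaling, to -0.01.

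Tap1, one side of the peptide pump, had levels of -1.35, -1.97 and -1.32 in treated cortex, against -1.70, -1.73 and -1.81 in control cortex. Treated replicates 1 and 3 were above all controls and treated replicate 2 was below them. The log2 difference was 0.20 (SE 0.18, 95% confidence interval -0.26 to 0.65, limma adjusted p = 0.540), and the other probe gave 0.21. Without treated replicate 2 the difference was 0.41 (limma adjusted p = 0.0941).

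Tap2, the other side of the pump, had levels of 0.41, 0.48 and 0.57 in treated cortex, against 0.54, 0.55 and 0.53 in control cortex. The control arrays were nearly alike and the treated arrays spread to both sides of them. The means had a log2 difference of -0.05 (SE 0.061, 95% confidence interval -0.20 to 0.096, limma adjusted p = 0.617).

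Psmb8, the immunoproteasome subunit, had levels of 0.73, 0.40 and 0.90 in treated cortex, against 0.80, 0.97 and 0.61 in control cortex. The groups overlapped, with treated replicate 2 the lowest array. The fitted log2 difference was -0.11 (SE 0.16, 95% confidence interval -0.50 to 0.27, limma adjusted p = 0.686).

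Probes of a gene mostly agreed in direction. Of the 12 class II probes above background, 11 had a lower mean in treated cortex and 1, a Ciita probe, a higher one, with differences of -0.66 to 0.12. Of the 10 class I probes, 5 were lower and 5 higher, with differences of -0.11 to 0.21. None of these 22 probes was called in a limma fit over 40988 probes, which called 6.72% of them. The groups did not overlap for 1 class II probe and 1 class I probe, against 33.3% of all probes. Probes of 1 gene read the same RNA and are not replicates.

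**Figure D2:**
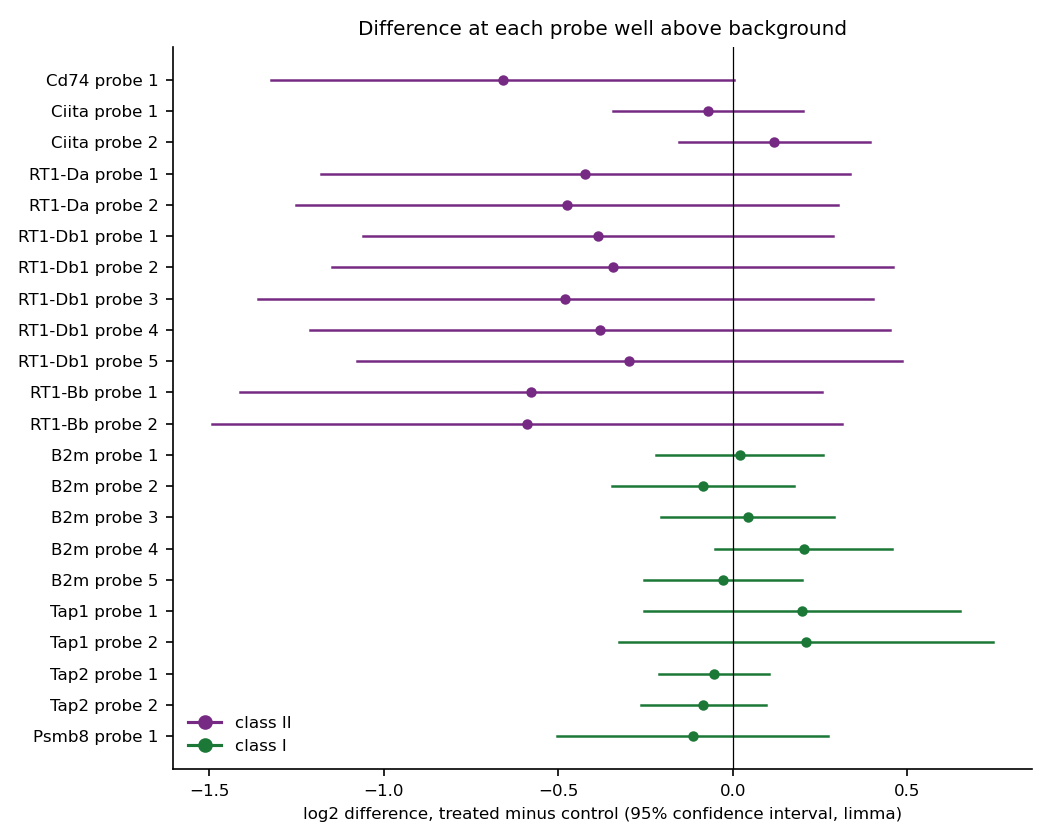
Log2 difference, treated minus control, at each of the 22 probes above background, with 95% confidence intervals from the limma fit over all probes. Every interval includes 0, 11 of the 12 class II points lie left of 0, and the class II intervals other than those of Ciita are the widest.

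The median log2 difference of the 5 tested class II genes was -0.42, that of the 4 class I genes was -0.018, and that of all 12130 genes was -0.03. The class II median was lower than the class I median by 0.41, as a difference of -0.41 between them. No test is given for these medians, because the genes were picked as a list. Taken array by array, the mean deviation of the class II genes from their control means was -0.48, -0.56 and -0.23 on treated arrays, against 0.54, -0.10 and -0.43 on control arrays. For class I genes the same mean was 0.033, -0.19 and 0.19 on treated arrays, against 0.022, 0.041 and -0.063 on control arrays. On control replicate 3 the class II genes stood as low as on treated arrays, while on control replicate 1 they stood higher than on any other array.

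**Figure D3:**
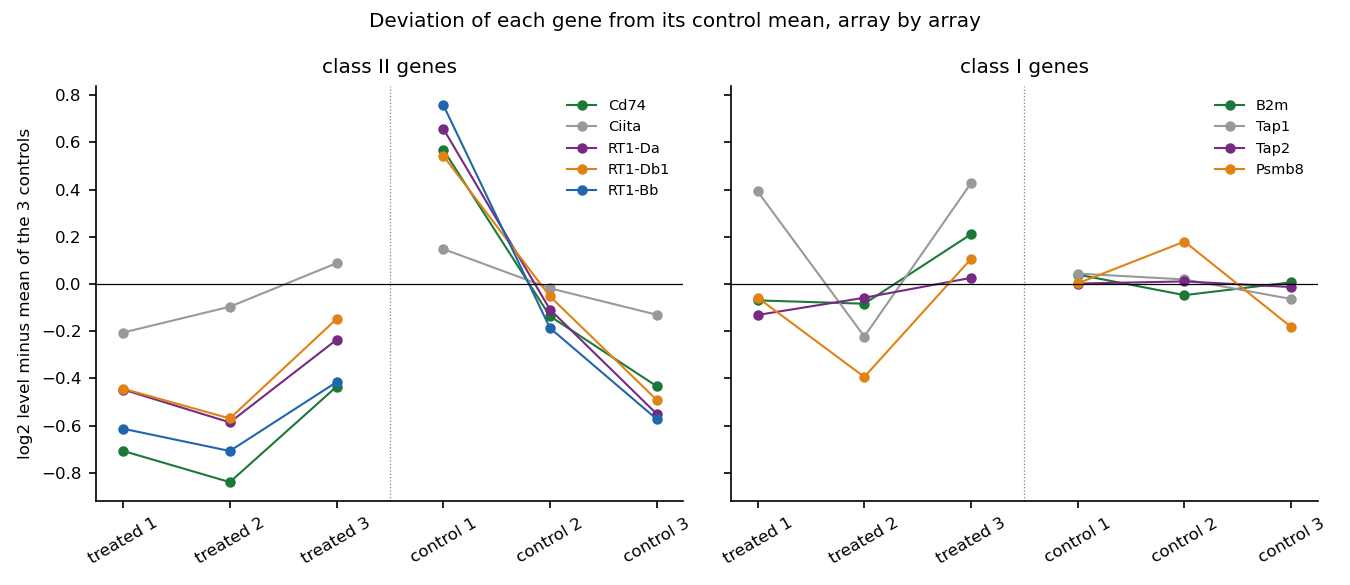
Deviation of each tested gene from its mean over the 3 controls, in log2 units, for each array, with class II genes at left and class I genes at right. Lines only connect the points of a gene, since arrays have no order. Cd74, RT1-Da, RT1-Db1 and RT1-Bb trace nearly 1 line, at 0.54 to 0.76 on control replicate 1 and at -0.57 to -0.43 on control replicate 3, and the 4 class I genes shown do not.

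The class II genes other than Ciita spread widely among the controls. For RT1-Bb the SD was 0.15 in treated and 0.68 in control cortex, and only 3.18% of all genes tested had a larger SD among controls. The share of genes with a larger control SD was 4.12% for RT1-Da, 5.39% for RT1-Db1 and 5.48% for Cd74. The same share was 37.5% for Ciita, 28.1% for Psmb8, 75.8% for Tap1, 83.1% for B2m and 98.5% for Tap2. The median SD was 0.18 in treated and 0.52 in control cortex for class II genes, 0.21 in treated and 0.050 in control cortex for class I genes, and 0.11 in treated and 0.10 in control cortex for all genes. No test of these spreads was made.

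Control replicate 1 carried much of the class II difference. It lay above the mean of the other 2 controls by 1.14 log2 units for RT1-Bb, 0.99 for RT1-Da, 0.85 for Cd74, 0.81 for RT1-Db1 and 0.22 for Ciita. For the class I genes the same excess was 0.066 for Tap1, 0.060 for B2m, 0.0039 for Psmb8 and 0.0028 for Tap2. Without control replicate 1 the log2 difference was -0.38 for Cd74, -0.20 for RT1-Bb, -0.12 for RT1-Db1 and -0.09 for RT1-Da, with limma adjusted p between 0.273 and 0.788, and the class II median was -0.12. Without control replicate 3 the class II median was -0.70, and Cd74 stood at -0.88 with a limma adjusted p of 0.160. Leaving out 1 array at a time therefore moved the class II median between -0.70 and -0.12 and never called a member.

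**Figure D4:**
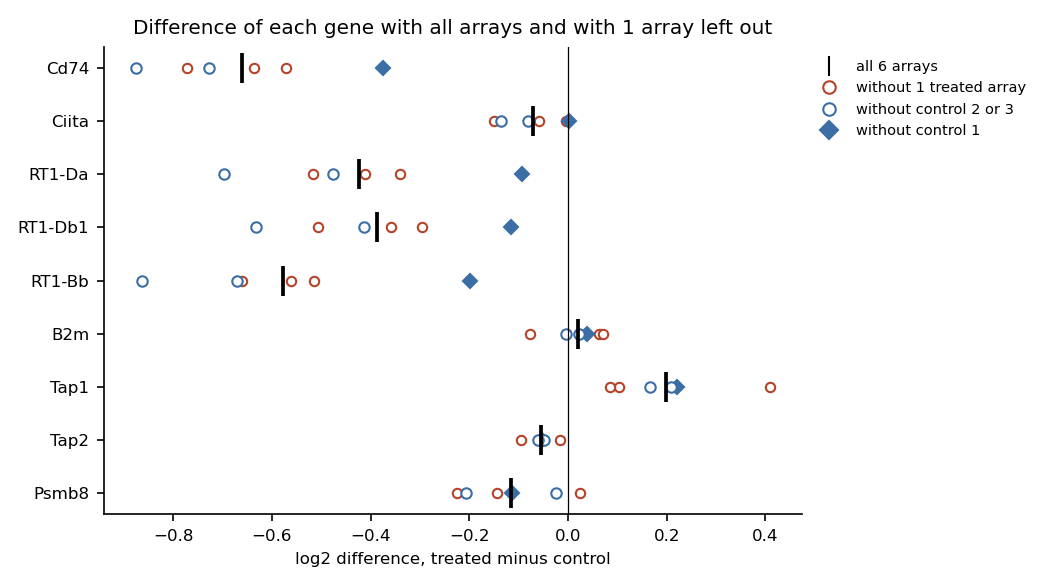
Log2 difference, treated minus control, of each tested gene with all 6 arrays (bars) and with 1 array left out (points). Diamonds, without control replicate 1, are the values nearest 0 for Cd74, RT1-Da, RT1-Db1 and RT1-Bb, and for the class I genes they lie close to the bars.

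The genes most like the class II genes were found by Pearson's r, over the 6 arrays, with the mean class II deviation. Because they are the highest of 12121 other genes, r is given as a description with no test. The first was Ccl5, a chemokine, at 0.992, with levels of 1.35, 1.27 and 1.58 in treated and 2.01, 1.63 and 1.40 in control cortex. The second was RT1-DMb at 0.987, the beta chain of the DM molecule that exchanges peptides on class II pairs. RT1-DMb had levels of 1.21, 1.14 and 1.44 in treated cortex, against 2.21, 1.44 and 1.30 in control cortex. Both had control replicate 1 as the highest array and neither was called, with log2 differences of -0.28 for Ccl5 (limma adjusted p = 0.378) and -0.39 for RT1-DMb (limma adjusted p = 0.390).

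Snrpd2, a splicing protein, followed at 0.984, Vamp5, a vesicle fusion protein, at 0.983 and Dnajc30, a mitochondrial chaperone, at 0.983. Their differences were small, at -0.07, -0.12 and -0.17 in that order. In all, 108 of the 12121 genes had r above 0.9 and 34 had r above 0.95. Control replicates 1 and 2 were the arrays farthest from the median of the profile, and without them r was 1.00 for Ccl5, 0.984 for RT1-DMb, 0.978 for Snrpd2, 0.955 for Vamp5 and 0.850 for Dnajc30, over 4 arrays.

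Among the other genes of the class II region, RT1-DMa, the partner chain of RT1-DMb, ranked 8 of 12121 with r of 0.98. Its levels were 1.47, 1.35 and 1.59 in treated cortex, against 2.69, 1.71 and 1.49 in control cortex, with a log2 difference of -0.50 (limma adjusted p = 0.380). RT1-Db2, the relative of RT1-Db1, ranked 10 with r of 0.978, at 0.59, 0.50 and 0.93 in treated and 1.72, 0.96 and 0.40 in control cortex. The chains of the DO molecule were less alike, with RT1-DOa at rank 943 and r of 0.712, and RT1-DOb, whose promoter holds the X and Y box pair, at rank 2541 and r of 0.525. In the promoter search RT1-DMa and RT1-DOa held ATTGG and no match to the X box core, and RT1-DMb is not in the promoter table. A gene without a match to the core, RT1-DMa, was thus among those most like the class II genes. RT1-DMa, RT1-Db2 and the DO chains were picked out after their values had been seen. For the members themselves, which make up the profile, r was 0.981 to 0.994 for Cd74, RT1-Da, RT1-Db1 and RT1-Bb, and 0.828 for Ciita. The class I genes had r of 0.515 for Tap2, 0.509 for Psmb8, 0.305 for B2m and 0.025 for Tap1. Without control replicates 1 and 2, over 4 arrays, r was 0.712 for Tap2, 0.874 for Psmb8, 0.984 for B2m and 0.669 for Tap1. On the same 4 arrays r was 0.802 for Cd74, 0.810 for Ciita, 0.915 for RT1-Da, 0.967 for RT1-Db1 and 0.993 for RT1-Bb. The r values of the class I and the class II genes thus overlapped over these 4 arrays. B2m was above Cd74, Ciita, RT1-Da and RT1-Db1, and Psmb8 was above Cd74 and Ciita. Tap1 and Tap2 were below all tested class II genes. The RT1 chain genes stayed at 0.915 or more and were not set apart from B2m.

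Some class I heavy chain genes were also like the class II genes in this measure. Of the 28 tested heavy chains and relatives, 5 had r above 0.9, namely RT1-CE4 at 0.954, RT1-A1 at 0.944, RT1-CE1 at 0.944, RT1-S2 at 0.908 and RT1-CE12 at 0.901. RT1-CE4 had levels of 3.72, 3.61 and 3.79 in treated cortex, against 4.02, 3.84 and 3.77 in control cortex, the same order of controls over a narrower range. The 5 genes had log2 differences of -0.17 to -0.07 and none was called (limma adjusted p = 0.303 to 0.698). Without control replicates 1 and 2, r was 0.994 for RT1-CE1, 0.851 for RT1-CE12, 0.821 for RT1-CE4, 0.689 for RT1-A1 and 0.564 for RT1-S2. Over all 28 heavy chains and relatives the median r was 0.38 and the lowest -0.57. Over the 6 arrays the pattern was therefore shared by some genes outside class II. These 5 heavy chains were picked out after their values had been seen.

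The 7 lists of other antigen presentation genes held 113 genes, of which 83 were tested and 2 were called, against 4.38% of all genes. Both belonged to the list of class II accessory and peptide loading genes, where 14 of 15 were tested, 1 rose, 1 fell, 12 were not called, and the median log2 difference was -0.09, against -0.03 for all genes. Marchf1, a ubiquitin ligase that removes class II molecules from the cell surface, had levels of -0.94, -1.19 and -1.13 in treated cortex, against -1.56, -1.87 and -1.88 in control cortex. All treated arrays lay above all controls, with a log2 difference of 0.69 (SE 0.12, limma adjusted p = 0.039). A second Marchf1 probe was dim, did not pass the filter, and read -4.83, -5.83 and -5.55 in treated and -5.40, -5.02 and -5.42 in control cortex.

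Ctse, cathepsin E, an endosomal protease, had levels of -1.72, -1.58 and -1.48 in treated cortex, against -1.17, -0.86 and -0.98 in control cortex. All treated arrays lay below all controls, with a log2 difference of -0.59 (SE 0.11, limma adjusted p = 0.0437) and of -0.64 at its other probe. The call of Marchf1 and that of Ctse were both lost when any 1 array was left out, with limma adjusted p of 0.0524 to 0.110 for Marchf1 and 0.0577 to 0.124 for Ctse. Neither gene followed the class II pattern, with r of -0.33 for Marchf1 and 0.42 for Ctse.

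In the list of factors that act on class II promoters, 10 of 13 genes were tested, 0 were called and the median log2 difference was 0.01. Nfyb, a subunit of the Y box factor NF-Y, had the smallest p, with levels of 0.21, 0.22 and 0.14 in treated cortex, against 0.44, 0.46 and 0.45 in control cortex. Its groups did not overlap, and the log2 difference was -0.26 (SE 0.052, limma adjusted p = 0.0525). The 3 Nfyb probes disagreed, with a second at -0.25 and the other at 0.50 (limma adjusted p over probes = 0.0115), and the mean of the probes gave -0.0049 (limma adjusted p = 0.969). No direction is therefore given for Nfyb. Rfxap, a subunit of the RFX complex, had a log2 difference of 0.15 (limma adjusted p = 0.160).

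Among class I heavy chains and their relatives, 28 of 45 were tested, 0 were called, 14 had higher and 14 had lower means in treated cortex, and the median log2 difference was 0.01. RT1-M5 had a log2 difference of 0.67 (limma adjusted p = 0.0524) and RT1-CE11 one of 0.66 (limma adjusted p = 0.0749), and for both all treated arrays lay above all controls. These heavy chain genes have close relatives, and how far their probes share signal was not tested. In the class I loading and immunoproteasome list, 10 of 13 were tested, 0 were called and the median was -0.02. Tapbp, tapasin, which holds empty class I molecules at the peptide pump, had levels of 0.51, 0.54 and 0.62 in treated cortex, against 0.24, 0.28 and 0.27 in control cortex. Its groups did not overlap, and the log2 difference of 0.29 had a limma adjusted p of 0.0504.

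Pdia3, a chaperone of the loading complex, had a log2 difference of -0.21 (limma adjusted p = 0.193). All 3 constitutive counterparts of the immunoproteasome subunits were tested and 0 were called. Psmb5, the counterpart of Psmb8, had a log2 difference of -0.22 (limma adjusted p = 0.109), and Psmb7 one of -0.01. In the interferon gamma pathway, the main inducer of Ciita and of the immunoproteasome, 14 of 16 were tested, 0 were called and the median was 0.07. Ifng itself was not above background. Jak2, a kinase of this pathway, had a log2 difference of 0.13 (limma adjusted p = 0.203). For Socs1, a feedback inhibitor, it was 0.38 (limma adjusted p = 0.249). Of 8 co-stimulation genes 4 were tested and 0 were called, with -0.45 for Cd40 (limma adjusted p = 0.123) and 0.30 for Ccr7 (limma adjusted p = 0.367).

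**Figure D5:**
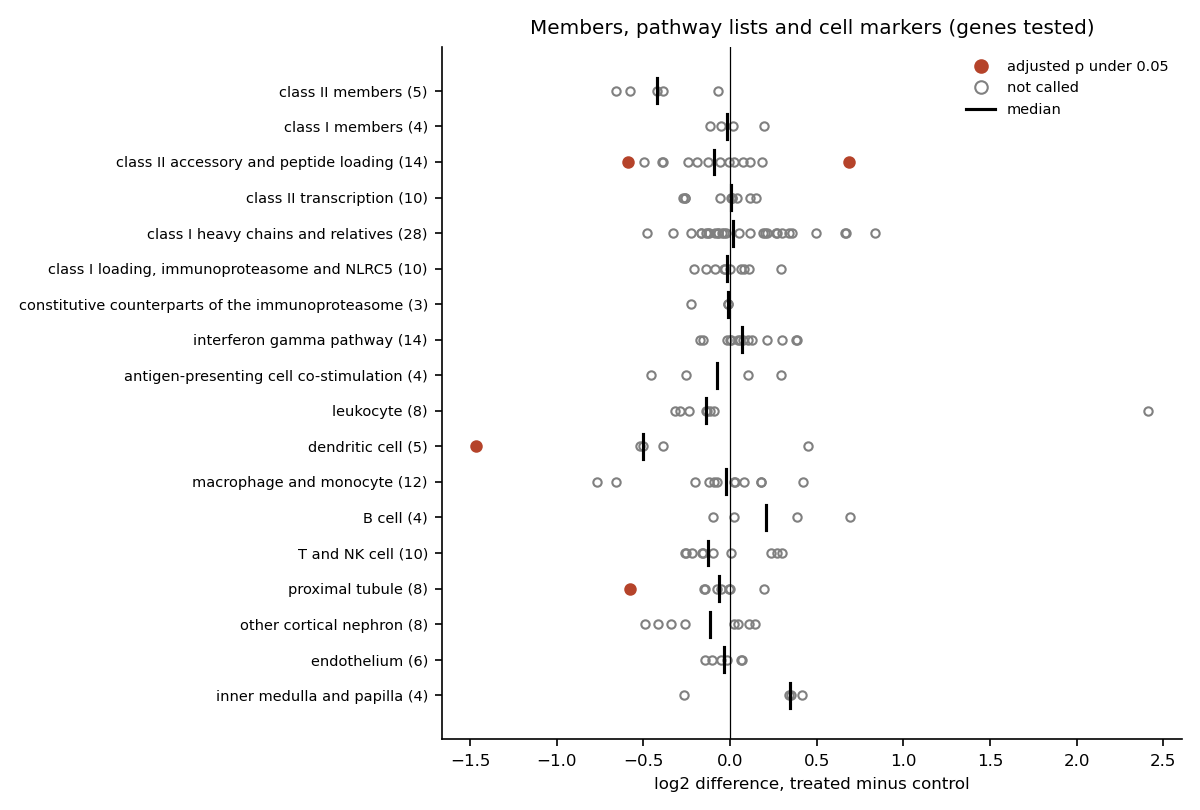
Log2 difference, treated minus control, of every tested gene of the members, the 7 lists of other antigen presentation genes and the 9 marker lists, with the number tested in brackets and the list median as a bar. Filled points are called by limma, and they are Marchf1 and Ctse in the class II accessory list, Clec9a among dendritic cell markers and Aqp1 among proximal tubule markers. No member is called.

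Class II genes are carried mainly by immune cells, and in whole cortex fewer cells of a type and less RNA per cell cannot be told apart. Markers of these cells are therefore given as linear levels, in multiples of the 75th percentile, summed over each list. Of 8 dendritic cell markers 5 were tested, 1 fell and 4 were not called, with a median log2 difference of -0.50. The summed level was 0.58 to 1.07 in treated cortex and 1.103 to 1.55 in control cortex. The gene that fell was Clec9a, a lectin receptor of cross-presenting dendritic cells, with levels of -4.36, -4.48 and -3.73 in treated cortex, against -3.15, -2.62 and -2.39 in control cortex. Its log2 difference of -1.47 had a limma adjusted p of 0.0474, and the call was lost without any 1 array (limma adjusted p = 0.0598 to 0.133). A second Clec9a probe was dim and did not pass the filter. It read -8.06, -8.03 and -8.02 in treated and -7.74, -8.00 and -7.28 in control cortex. Clec10a, a lectin of dendritic cells and macrophages, had a difference of -0.52 (limma adjusted p = 0.391), and Xcr1 was not above background. Of the 5 tested markers 4 had lower means and 1, Zbtb46, a higher one. Zbtb46 had a difference of 0.45 with all treated arrays above all controls (limma adjusted p = 0.223). It was dim, and only 1 control array was well above background. Control replicate 1, where class II genes were highest, had a dendritic sum of 1.105, at the low end of the controls. Clec10a made up 63.8% to 80.5% of this sum on each array, and the other 4 markers summed to 0.18 to 0.27 in treated and 0.30 to 0.40 in control cortex, with 0.30 on control replicate 1.

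The other immune lists had 0 called genes. Macrophage and monocyte markers, with 12 of 15 tested, had a median log2 difference of -0.02 and summed to 64.3 to 99.4 in treated and 85.4 to 105 in control cortex, with 90.8 on control replicate 1. Lyz2 made up 71.3% to 77.7% of that sum, and without it the sums were 17.2 to 27.1 in treated and 19.0 to 28.8 in control cortex. Lyz2, a lysozyme, had a difference of -0.20 and C1qb, a complement chain, one of 0.03 that changed sign with median scaling and a normexp background. B cell markers, with 4 of 8 tested, had a median of 0.20 and summed to 2.71 to 3.99 in treated and 1.90 to 2.84 in control cortex, with 2.54 on control replicate 1. Pax5 made up 57.8% to 79.7% of that sum, and without it the sums were 0.81 to 0.96 in treated and 0.80 to 0.99 in control cortex. The B cell factor Pax5 had a difference of 0.70 (limma adjusted p = 0.193) and the adaptor Blnk one of -0.10. T and NK cell markers, with 10 of 12 tested, had a median of -0.12 and summed to 2.44 to 2.91 in treated and 2.41 to 2.87 in control cortex, the highest control being control replicate 1. Cd3d, a T cell receptor chain, had a difference of 0.30 (limma adjusted p = 0.161), and Nkg7, a granule protein, one of -0.26 (limma adjusted p = 0.438). General leukocyte markers, all 8 tested, had a median of -0.14 and summed to 18.7 to 22.2 in treated and 21.0 to 25.6 in control cortex, with 21.3 on control replicate 1. Laptm5 and Coro1a, the brightest of them, had differences of -0.29 and -0.32. Against them Cd52, a lymphocyte surface protein, had the largest change of this list and in the opposite direction, at 2.41 with all treated arrays above all controls (limma adjusted p = 0.0729). The part of these cells in the class II differences was not tested.

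Outside the immune lists, Aqp1, the proximal tubule water channel, fell by 0.58 on the log2 scale (limma adjusted p = 0.034), and it was the only one of 8 proximal tubule markers called. That call was lost without any 1 array (limma adjusted p = 0.0728 to 0.110). The other 8 cortical nephron markers, the 6 of 8 endothelial markers tested and the 4 inner medulla markers had 0 calls. The inner medulla list summed to 0.81 to 1.15 in treated and 0.76 to 1.25 in control cortex, with the highest sum, 1.25, on control replicate 1. Aqp4, a water channel with a difference of -0.27, made up 60.7% to 77.9% of that sum. The other 3 genes were higher in treated cortex without overlap, against 32.8% of all genes without overlap in either direction. They were not called, with 0.35 for Upk1b (limma adjusted p = 0.0649), 0.34 for Slc14a2 (limma adjusted p = 0.0690) and 0.41 for Krt5 (limma adjusted p = 0.334). Krt5 was dim, and only 2 of the 3 control arrays were well above background for it. The list median was 0.35. Zbtb46, Cd52, Slc14a2 and Krt5 were named after their values had been seen. Without Aqp4 the sums were 0.32 to 0.35 in treated and 0.25 to 0.28 in control cortex.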

How the data were processed

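The deposited spot intensity is, per the file headers, Cy3 signal after background subtraction and detrending by Agilent Feature Extraction 10.7.1.1 (the submitters' processing notes give 10.7), on an array tied to build rn4. The deposited value table is a linear, uncentred ratio. Set against the scanner files it is the signal over the array's 75th percentile (0.998 of it, with column medians of 0.108, 0.108 and 0.110 on treated and 0.104, 0.105 and 0.109 on control arrays), a step the labels do not give.

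Values are log2 of the processed signal minus each array's 75th percentile over non-control probes, with 1 to 3 outlier spots per array missing and 0 saturated. Unversioned accessions named 28206 probes of 15645 genes through a RefSeq table (GRCr8), and 33331 probes stayed unnamed. As the builds differ, coordinates are given only for RefSeq promoters. The 12130 genes with a probe well above background on all 3 arrays of a group were tested at their brightest such probe with limma 3.58.1 (lmFit, eBayes, R 4.3.3), with prior degrees of freedom of 1.77 and 3033 genes at unadjusted p under 0.05. The fit was tested on simulated data.

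The members and lists were chosen with earlier results of these data known. Named genes are the members, up to 3 called genes of each list or else the 2 with the smallest p, the 2 brightest and any called of each marker list, and the 5 most like the class II profile. Alternatives were a normexp background (offset 50, on median spot signals, since no mean signal is in the files), scaling by quantiles or by the median, no dim-probe filter or a stricter one, the value table, a replicate block, an intensity trend, the mean of a gene's probes, all probes one by one, and leaving out each array. Same-numbered arrays did not deviate together (r = -0.118, -0.114 and 0.089), and the main fit paired no samples. These r values alone cannot show whether the numbers pair samples.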

Additional observations from a re-analysis of the deposited data

How the results depend on the processing

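Under all 10 other settings and all 6 fits without 1 array, 0 members were called. The class II median stayed between -0.50 and -0.40 under the other settings and between -0.70 and -0.12 with 1 array left out, the class I median between -0.05 and 0.01 and between -0.09 and 0.05, and their difference between -0.52 and -0.40 and between -0.68 and -0.11. Signs of uncalled members turned for Ciita (0.02 with the mean of its probes, 0.0029 without control replicate 1), B2m (-0.01 with median scaling, -0.08 without treated replicate 3, -0.0043 without control replicate 2) and Psmb8 (0.02 without treated replicate 2). Counts over all genes moved more. Against 370 genes higher and 161 lower, no filter gave 37 and 7, the mean of a gene's probes 229 and 63, all probes 2039 and 715, a normexp background 459 and 513, and an intensity trend 441 and 395. The replicate block called 0 higher and 0 lower, and leaving out 1 array 0 to 48 higher and 0 to 6 lower. The 2 called genes of the 7 lists became 6 with normexp, 5 with the stricter filter, 5 with the trend, 4 over all probes, 0 with no filter, 0 with the replicate block and 0 without any 1 array. Marchf1 (adjusted p = 0.0788 and 0.109) and Ctse (0.0850 and 0.114) lost their calls with no filter and with the replicate block, as did Clec9a, which also lost it with the mean of probes (0.0599), and Aqp1, while Nfyb, RT1-M5 and Tapbp were each called under 3 or 4 settings and Psmb5 under 1. Apart from fewer arrays in the fits that leave one out, the cause was not tested. A slide or scan block could not be fitted, because each slide held 1 group.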

Other observations

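The values of 3 genes are given here, chosen after they had been seen. RT1-DOa is a tested gene of the class II accessory list, Cd52 one of the leukocyte list, and Fcrl2 is in no list. Fcrl2, an Fc receptor-like gene of B cells, ranked 14 of 12121 in likeness to the class II genes (r = 0.969), with levels of -5.84, -5.54 and -5.42 in treated cortex, against -2.63, -4.88 and -5.62 in control cortex, where 2 of the 3 arrays were well above background. RT1-DOa, a chain of the DO molecule that restrains DM, had levels of -4.95, -4.58 and -4.43 in treated cortex, against -3.60, -4.64 and -6.07 in control cortex. The order of controls was that of RT1-Bb over a wider range, but only 2 of the 3 control arrays were well above background. Without control replicates 1 and 2, over 4 arrays, r of RT1-DOa with the class II profile was 0.20. Cd52, a surface protein of lymphocytes, had levels of -0.88, 0.93 and 1.17 in treated cortex, against -1.98, -2.43 and -1.62 in control cortex. Its groups did not overlap and its log2 difference of 2.41 did not pass the test (limma adjusted p = 0.0729).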
